A study of Mus musculus with 2 samples.

Results

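Natural killer (NK) cells of the adrenal gland were described in single-cell RNA sequencing of female C57BL/6J mice of genotype SF1-Cre+;Znrf3Fx/Fx at 9 weeks and 6 weeks of age. Cre under the SF1 promoter is active in the steroidogenic cortex, where it deletes Znrf3, whose product is a ubiquitin ligase restraining Wnt receptors, so the deletion lies in the tissue around the NK cells and is carried by both groups. According to the series' design text, the 9-week age stands for regression of the gland and the 6-week age for hyperplasia. The 9-week library came from 3 adrenals and the 6-week library from 2 adrenals, each pooled into 1 library, from live nucleated cells kept by sorting. With 1 library per age no test between ages was possible, and age cannot be told apart from the animals, the dissociation or the library.

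NK cells were defined by measured transcripts. Among barcodes with at least 500 genes and at most 25% mitochondrial UMIs (unique molecular identifiers, each counting 1 captured transcript), a barcode was taken as an NK cell when it held at least 2 UMIs over Ncr1, Klre1, Klrb1c and Eomes, at most 1 UMI over Cd3e, Cd3d and Cd3g, fewer than 5 over C1qa, C1qb and C1qc, fewer than 10 of H2-Ab1 and none of Cd79a. This gave 314 NK cells of 10527 cells at 9 weeks and 107 of 8608 cells at 6 weeks, 421 of 19135 in all. No barcode was an NK cell in both libraries, which shared 29 barcodes. The median depth of an NK cell was 3548.5 UMIs at 9 weeks and 3198 UMIs at 6 weeks.

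NK cells are innate lymphocytes that kill stressed, infected or transformed cells by releasing granules of perforin and granzymes, and that secrete interferon gamma and chemokines. Activating receptors such as NKp46 (Ncr1) and NKG2D (Klrk1) are balanced by inhibitory receptors that read MHC class I, among them several receptors of the Ly49 family, which the Klra genes encode in mice. In mouse tissues, circulating NK cells lose CD27 and gain CD11b (Itgam), KLRG1 and S1PR5 as they mature, while type 1 innate lymphoid cells, which also carry Ncr1 and Klrb1c, stay in tissue and carry CD49a (Itga1), CXCR6, CD200R1 and often IL-7 receptor. The defining rule does not separate the circulating from the tissue-resident kind.

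The promoters of 3 genes on which the results below turn are shown here: Gzma and Prf1, which encode granzyme A and perforin and were higher at 9 weeks, and Xcl1, a chemokine gene that was lower. Each sequence is the RefSeq window from 250 bases before to 50 bases after the annotated start, in the orientation of the gene, on GRCm38.p6: chr13:113100932-113101231 on the minus strand for Gzma, chr10:61297586-61297885 on the plus strand for Prf1 and chr1:164935473-164935772 on the minus strand for Xcl1. Capitals mark exact matches, on either strand, to the letters of a T-box core (GGTGTGA), a RUNX site (TGTGGTT) or an ETS site (AGGAAGT), families whose members T-bet, Eomes, Runx3 and Ets1 act in NK cells.
Gzma: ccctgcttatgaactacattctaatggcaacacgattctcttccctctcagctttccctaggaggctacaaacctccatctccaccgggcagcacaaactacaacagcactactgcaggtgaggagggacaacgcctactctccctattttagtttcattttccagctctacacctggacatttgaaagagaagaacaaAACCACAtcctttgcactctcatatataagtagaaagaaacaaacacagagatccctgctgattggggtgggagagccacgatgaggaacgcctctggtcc
Prf1: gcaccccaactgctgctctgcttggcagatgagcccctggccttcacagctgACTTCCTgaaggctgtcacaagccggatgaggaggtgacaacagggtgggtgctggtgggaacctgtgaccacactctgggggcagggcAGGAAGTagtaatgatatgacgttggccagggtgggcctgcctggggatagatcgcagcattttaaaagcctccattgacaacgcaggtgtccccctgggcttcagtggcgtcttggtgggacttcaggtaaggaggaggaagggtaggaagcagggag
Xcl1: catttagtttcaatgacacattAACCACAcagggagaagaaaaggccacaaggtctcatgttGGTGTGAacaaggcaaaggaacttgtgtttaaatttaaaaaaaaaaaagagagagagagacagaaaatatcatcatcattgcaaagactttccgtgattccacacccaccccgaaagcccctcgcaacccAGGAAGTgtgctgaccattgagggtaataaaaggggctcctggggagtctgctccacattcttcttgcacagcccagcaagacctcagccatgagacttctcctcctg
The Gzma window held 1 RUNX match, the Prf1 window 2 ETS matches, and the Xcl1 window 1 match of each of the 3 motifs. A STAT motif (TTCNNNGAA), also searched and held by 8.29% of windows, matched none of these 3 windows, and the windows of Itgam, S1pr5, Cd27, Klra4 and Klra8 held no match to any of the 4 motifs. Of 32817 RefSeq promoter windows of this length, 3.98% held the T-box core, 5.27% the RUNX letters and 9.35% the ETS letters. The matches describe letters, and binding was not measured.

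Some NK barcodes also carried many transcripts of other cells. At 9 weeks 18 of 314 and at 6 weeks 6 of 107 NK barcodes also held at least 10 UMIs of steroid enzyme genes (Star, Cyp11a1, Cyp21a1, Cyp11b1) or of neutrophil genes (S100a8, S100a9, Ngp, Camp), and are called mixed barcodes here. They were deep, with medians of 17194 UMIs at 9 weeks and 18630 at 6 weeks, and carried 21.5% and 23.9% of all NK UMIs at 9 and 6 weeks. The split was wide: cortical UMIs ran from 46 to 607 in the cortical mixed barcodes at 9 weeks and from 75 to 351 at 6 weeks, and never passed 3 in the remaining NK barcodes at either age. The doublet caller Scrublet marked 8 of the 18 at 9 weeks and 5 of the 6 at 6 weeks. Levels below include all gated barcodes, and values without the mixed barcodes are given beside the list counts and named genes whose calls they change. Without them 8101 genes were measured, of which 17.9% were higher at 9 weeks and 8.62% lower by the rule given below, and 2.54% and 1.49% with counting intervals that also stood apart.

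The label was checked against markers outside the rule. Nkg7, a granule membrane protein of cytotoxic lymphocytes, had UMIs in 99.0% of NK cells at 9 weeks and 99.1% at 6 weeks, and Klrd1, the CD94 partner of NKG2 receptors, in 97.5% and 93.5% at 9 and 6 weeks. Nkg7 does not separate NK cells from CD8 T cells, of which 94.1% at 9 weeks and 95% at 6 weeks had a UMI. Itga2, another marker outside the rule, had UMIs in only 36.0% of NK cells at 9 weeks and 14.0% at 6 weeks. In CD8 T cells these shares were 2.48% and 3.33% at 9 and 6 weeks. Fcer1g and Tyrobp, the signalling adaptors that NK receptors need, stood at 2934 and 2633 CPM (UMIs of a gene scaled to the same total in each library) at 9 weeks and at 2777 and 2497 CPM at 6 weeks. Of the T cell list of 17 genes, 4 were at 0 at 9 weeks and 6 at 6 weeks, with a summed level of 638 CPM at 9 weeks and 1003 CPM at 6 weeks. This list includes Cd3e, Cd3d and Cd3g, whose UMIs the rule itself limits. Their low counts are therefore no check of the label, and they lower both the sum and the number of genes seen. Most of that sum lay in Trbc1 and Trbc2, T cell receptor beta constant genes, at 232 and 237 CPM at 9 weeks and 374 and 394 CPM at 6 weeks, whereas Cd8a, Cd5 and Cd6 had no UMI in NK cells of either library. Markers of type 2 and type 3 innate lymphoid cells were also missing: Il1rl1, Il13, Il5, Areg, Il17a and Il22 had no UMI at either age.

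Cells just inside and just outside the threshold differed in these markers, which is a description of the rule and supports nothing further. Exactly 2 gate UMIs were found in 5 NK cells at 9 weeks and 2 at 6 weeks, where 80% and 100% of cells had an Nkg7 UMI. With 1 gate UMI, 35 barcodes at 9 weeks and 15 at 6 weeks fell just outside, and 5.71% of those at 9 weeks and 0 of those at 6 weeks had an Nkg7 UMI. The median NK cell held 14 gate UMIs at 9 weeks and 11 at 6 weeks.

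NK cells made up 2.98% of all cells at 9 weeks (exact binomial 95% interval 2.67 to 3.33) and 1.24% at 6 weeks (1.02 to 1.5), a ratio of 2.40 with bounds of 1.78 and 3.26 from the ends of those intervals. Adrenocortical cells, by their own gate, made up 18.1% of the library at 9 weeks and 50.3% at 6 weeks, and are part of that denominator. Among cells with at least 1 UMI of Ptprc, the pan-leukocyte gene CD45, NK cells made up 4.81% at 9 weeks (4.30 to 5.35) and 4.25% at 6 weeks (3.46 to 5.16), a ratio of 1.13 with bounds of 0.833 and 1.55. The difference among leukocytes was therefore not detectable at this depth. CD8 T cells stood at 3.02% of Ptprc-positive cells at 9 weeks and 2.39% at 6 weeks, and B cells at 5.50% at 9 weeks and 6.94% at 6 weeks. NK cells per NK and B cell were higher at 9 weeks, at a ratio of 1.29 (1.02 to 1.66), and NK cells per NK and CD8 T cell had a ratio of 0.950 (0.792 to 1.16). All intervals here cover counting error only.

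**Figure D1:**
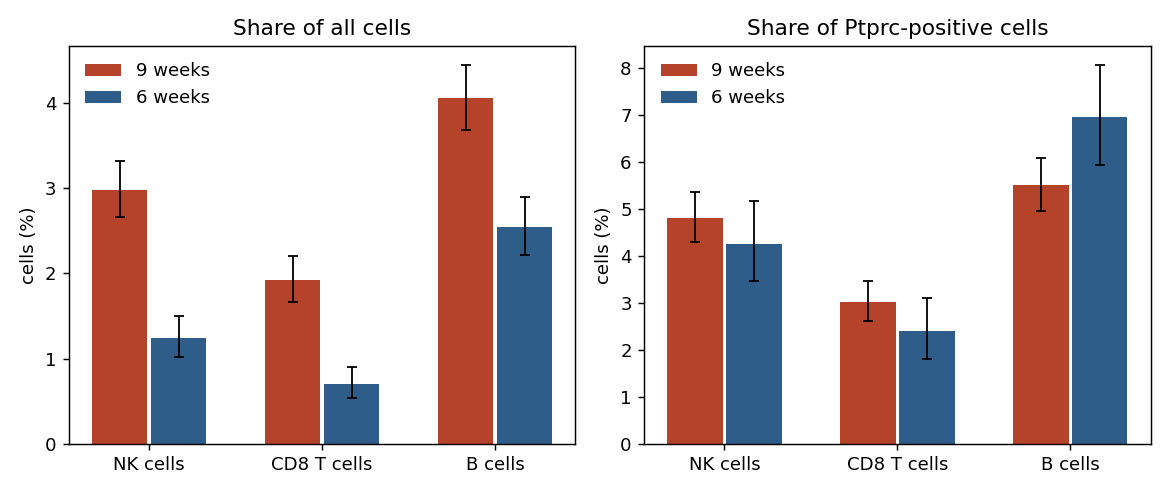
Share of all cells (left panel, percent) and of Ptprc-positive cells (right panel, percent) held by NK, CD8 T and B cells at 9 weeks (red) and 6 weeks (blue), with exact binomial 95% intervals. NK cells reached 2.98% and 1.24% of all cells at 9 and 6 weeks, and their intervals overlapped among Ptprc-positive cells.

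What set NK cells apart from their cytotoxic neighbours was seen by setting them beside CD8 T cells of the same library, with the genes of both gates left out and as a description, since the gates chose the cells. Of the genes measured, 23.7% at 9 weeks and 25.4% at 6 weeks were at least 1.5-fold higher in NK cells, and 8.75% and 12.4% at 9 and 6 weeks were lower. Ranked by the smaller of the ratios at both ages, the 12 leading genes were Klra4, Klri2, Klrb1a, Klra8, Klrb1b, Klrc2, Fcer1g, Klra9, Klra3, Styk1, Cma1 and Klrk1. Of these, 9 are lectin-like receptor genes and Fcer1g is a receptor adaptor. Klra4, which encodes the activating receptor Ly49D, had 548 CPM in NK cells at 9 weeks and 231 CPM at 6 weeks, and no UMI in CD8 T cells of either library. Klrk1 had 1076 CPM in NK cells against 64.7 CPM in CD8 T cells at 9 weeks, and 1269.7 CPM against 75.6 CPM at 6 weeks. Cma1, which encodes the chymase also made by mast cells, had 225 CPM in NK cells at 9 weeks and 131 CPM at 6 weeks, and it made up most of the summed mast cell and basophil list, which came to 246 CPM at 9 weeks and 140.1 CPM at 6 weeks, while Mcpt8 and the mast cell receptor gene Fcer1a had 0 and 1 UMIs at 9 weeks and none at 6 weeks.

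For the ages, the UMIs of all NK cells in a library were summed and scaled to CPM. A gene counted as measured at 10 CPM in either library with 10 UMIs over both, and as higher or lower when its level plus 5 CPM differed by at least 1.5-fold. By this rule 8821 genes were measured, of which 14.2% (1254 genes) were higher at 9 weeks and 9.4% (829 genes) were lower. Requiring in addition that the exact Poisson 95% intervals of both levels stand apart left 3.13% higher and 2.06% lower. These intervals cover counting error and take no account of differences between cells or animals. The median log2 ratio over all measured genes was 0.05. The shares of called genes serve as the background for every list below. The lists and their members were chosen with earlier results of these data known. Their counts are therefore a description and not independent support for a difference between ages.

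The genes of mature circulating NK cells were higher at 9 weeks. Of 14 listed and measured genes, 11 were at least 1.5-fold higher (78.6%, against 14.2% of all measured genes) and none was lower. The median log2 ratio was 1.11, and all 11 had intervals that stood apart. Itgam, the CD11b integrin, had 149.8 CPM at 9 weeks (95% interval 131 to 171) and 31.1 CPM at 6 weeks (17.02 to 52.2), a log2 ratio of 2.10. S1pr5, the sphingosine phosphate receptor by which NK cells leave lymphoid organs, had 130.2 CPM at 9 weeks and 44.5 CPM at 6 weeks, and Klrg1, an inhibitory receptor for cadherins, had 157 CPM at 9 weeks and 53.4 CPM at 6 weeks. Both intervals stood apart, with log2 ratios of 1.45 and 1.47. Cx3cr1, the fractalkine receptor, stood at 76.2 CPM at 9 weeks and 28.9 CPM at 6 weeks. Spn, which encodes CD43, and Rap1gap2 were higher as well. The members past neither bound were S1pr1, Itgb2 and Ly6c2, with log2 ratios of -0.41, 0.31 and 0.18.

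Transcription factors of this state differed in the same list. Zeb2, needed for terminal NK maturation in mice, had 413 CPM at 9 weeks and 169 CPM at 6 weeks, where 1 cell gave 30.3% of its UMIs, and Prdm1, which encodes Blimp-1, had 41.8 CPM at 9 weeks and 11.1 CPM at 6 weeks. Klf2, a factor that drives S1pr receptor and homing genes in lymphocytes, had 899 CPM at 9 weeks and 525 CPM at 6 weeks. Of 26 transcription factors measured, 7 were higher (26.9%, against 14.2% of all measured genes) and 1, Ikzf2, was lower (3.85%, against 9.4%). Without the mixed barcodes 9 were higher and 3 lower, as Foxo1, Nr4a3 and Irf8 joined the higher genes and Bach2 and Nr4a1 the lower ones. These shares of 34.6% and 11.5% compare with 17.9% and 8.62% of all genes measured without the mixed barcodes. The lineage pair did not pass: Eomes, which is in the gate, had a log2 ratio of 0.53, and Tbx21, which encodes T-bet, stood at 163 CPM at 9 weeks (143 to 185) and 127 CPM at 6 weeks (96.0 to 164), with overlapping intervals. Nr4a1 was called higher over all gated barcodes, at 0.79, and lower without the mixed barcodes, at -0.82, with 88.2% of its 9-week UMIs in 5 cells.

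Genes of immature NK cells stood lower at 9 weeks. Of 12 measured, 10 were lower (83.3%, against 9.4% of all measured genes) and none higher. The median log2 ratio was -1.05, and 9 of the lower genes had intervals apart. Without the mixed barcodes 10 were lower and 1 higher. The list includes Xcl1 and Cd160, whose values follow with their families. Cd27, the receptor lost in late maturation, had 39.8 CPM at 9 weeks (30.3 to 51.4) and 102 CPM at 6 weeks (74.9 to 136). Il7r, the IL-7 receptor alpha chain, had 27.0 CPM at 9 weeks and 131 CPM at 6 weeks, the largest negative log2 ratio among the genes named by rule, at -2.09. Cd7 and Thy1, surface proteins of early lymphocytes, stood at 378 and 63.4 CPM at 9 weeks against 672 and 138 CPM at 6 weeks.

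Genes that mark type 1 innate lymphoid cells and tissue residency stood lower too. Of 17 measured, 12 were lower (70.6%, against 9.4% of all measured genes) and none higher, with a median log2 ratio of -0.95. Without the mixed barcodes 14 were lower, as Tmem176a and Tmem176b joined the count. This list shares 3 genes (Il7r, Ltb and Emb) with the immature list. Itga1, the collagen-binding CD49a chain, had 74.9 CPM at 9 weeks and 149 CPM at 6 weeks, and Cxcr6, the receptor for CXCL16, had 138 CPM at 9 weeks and 262 CPM at 6 weeks. Inpp4b, a phosphoinositide phosphatase, had 45.2 CPM at 9 weeks and 185 CPM at 6 weeks. Cd200r1, an inhibitory receptor, and Tnfsf10, the death ligand TRAIL, were lower at log2 ratios of -1.24 and -1.30. Cd69, an early activation and retention marker, did not follow, with 54.0 CPM at 9 weeks and 35.6 CPM at 6 weeks and overlapping intervals.

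**Figure D2:**
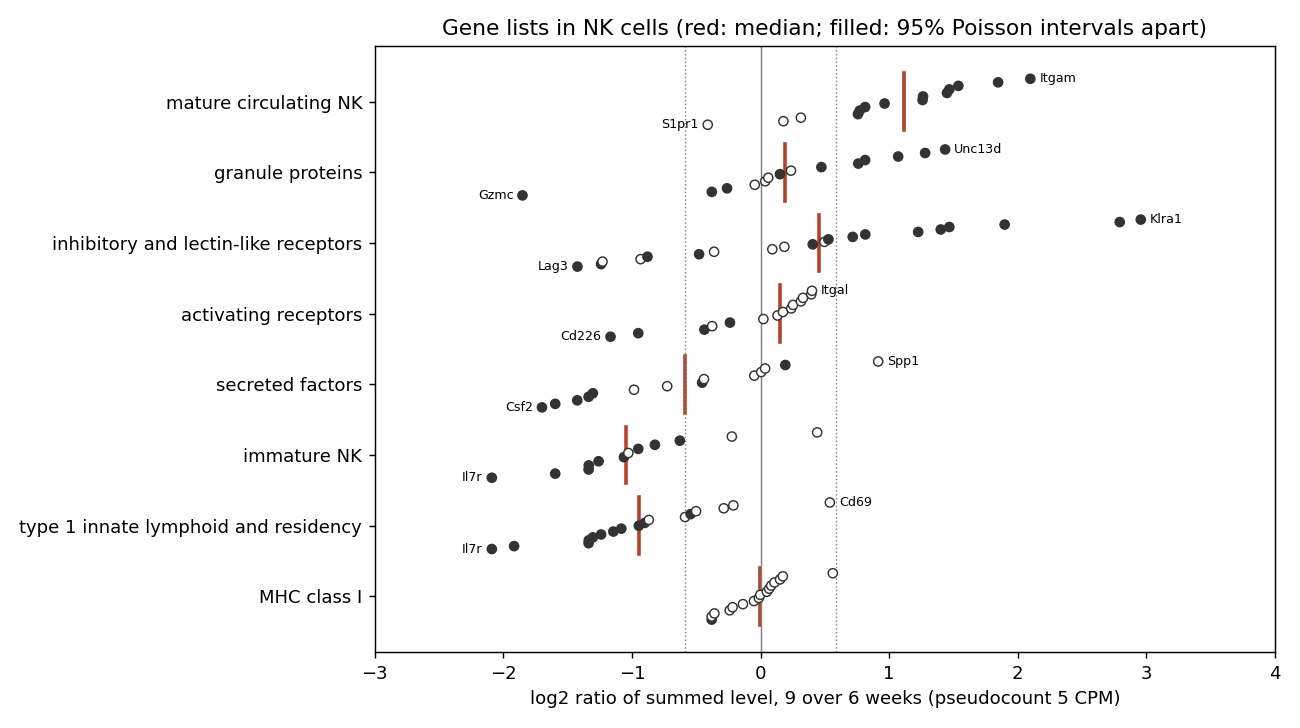
Log2 ratios of summed NK levels at 9 over 6 weeks (pseudocount 5 CPM) for the measured genes of 8 lists, with some of the extreme genes named. Red lines are list medians, filled points have 95% Poisson intervals that do not overlap, and dotted lines mark 1.5-fold. The mature list has its median at 1.11, the immature list at -1.05 and the type 1 innate lymphoid list at -0.95.

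Several genes of the killing machinery, among them perforin and granzymes A and B, were higher at 9 weeks. Of 14 granule genes measured, 5 were higher, 1 was lower and 8 passed neither bound, with a median log2 ratio of 0.19. The shares were 35.7% higher and 7.14% lower, against 14.2% and 9.4% of all measured genes. Gzma had 20624 UMIs in 9-week NK cells, or 13915 CPM (13726 to 14106), and 2978 UMIs in 6-week NK cells, or 6622 CPM (6386 to 6864), a log2 ratio of 1.07. Prf1, the pore former, had 1352 CPM at 9 weeks and 554 CPM at 6 weeks, and Gzmb, the caspase-activating granzyme, 1118 CPM at 9 weeks and 634 CPM at 6 weeks. Unc13d, which primes granules for fusion, and Serpinb9, which protects the killer from its own granzyme B, were higher at log2 ratios of 1.44 and 0.76. Nkg7 and Ctsw, at log2 ratios of 0.15 and -0.26, stayed within 1.5-fold. Gzmc alone was lower, with 93.1 CPM at 9 weeks and 349 CPM at 6 weeks. It came from 21 cells at 9 weeks and 14 cells at 6 weeks, with 47.8% of the 6-week UMIs in a single cell, so its level rests on few cells.

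The same genes were counted cell by cell after each NK cell had been thinned to 1500 UMIs, which left out 11 shallower cells at 9 weeks and 5 at 6 weeks. Gzma split the cells into those with many UMIs and those with none. At least 10 Gzma UMIs were found in 227 of 303 cells at 9 weeks (74.9%, 69.6 to 79.7) and in 47 of 102 cells at 6 weeks (46.1%, 36.2 to 56.2). No Gzma UMI was found in 14.2% of cells at 9 weeks (10.5 to 18.6) and in 42.2% at 6 weeks (32.4 to 52.3). Cells between 1 and 9 UMIs were few at both ages. Unthinned, 86.6% of NK cells had a Gzma UMI at 9 weeks and 62.6% at 6 weeks. For scale, Gzma UMIs at the same depth were found in 2.93% of B cells at 9 weeks and 1.43% at 6 weeks, whose median depths were 3208 and 3168 UMIs at 9 and 6 weeks.

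**Figure D3:**
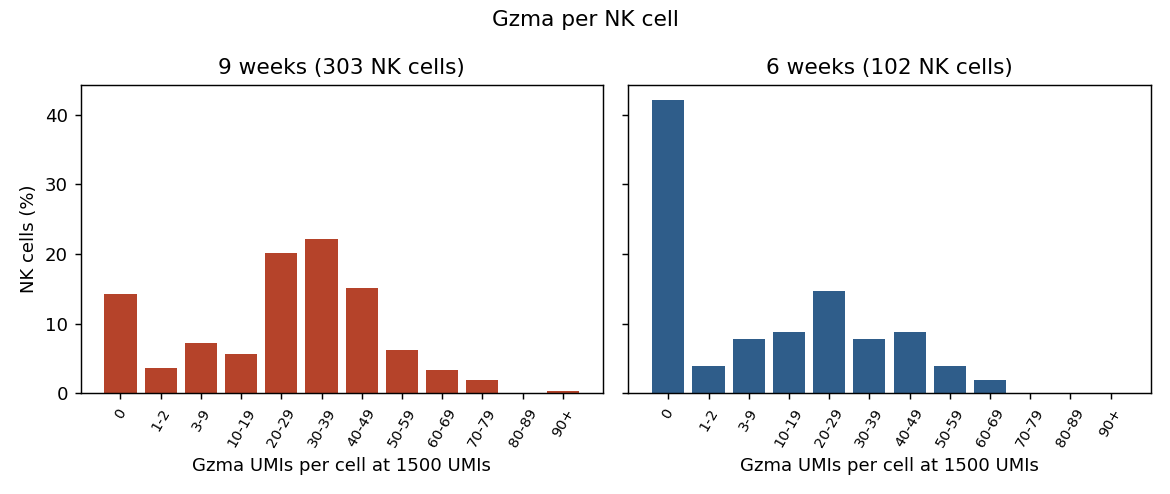
Gzma UMIs per NK cell after thinning to 1500 UMIs, as a percentage of the 303 cells at 9 weeks (left) and 102 cells at 6 weeks (right). The column at 0 UMIs holds 14.2% of cells at 9 weeks and 42.2% at 6 weeks, and most remaining cells lie at 10 UMIs or more.

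Receptor genes divided by family. Of 20 inhibitory and lectin-like receptor genes measured, 8 were higher (40%) and 5 were lower (25%), against 14.2% and 9.4% of all measured genes. Klrb1a joined the lower genes without the mixed barcodes at a log2 ratio of -0.62. All 7 Klra genes measured (Klra1, Klra3, Klra4, Klra5, Klra7, Klra8 and Klra9) were higher, joined by Klrg1. Klra5 had 44 UMIs from 13 cells at 9 weeks and none at 6 weeks. Klra7, which encodes the inhibitory Ly49G, had 262 CPM at 9 weeks and 66.7 CPM at 6 weeks, and Klra8, which encodes the activating Ly49H, had 337 CPM at 9 weeks and 125 CPM at 6 weeks. Klra1, which encodes Ly49A, had 85.7 CPM from 22 cells at 9 weeks and 6.67 CPM from 2 cells at 6 weeks, a count of 3 UMIs that allows little precision. After thinning, 73.9% of cells had a UMI of any Klra gene at 9 weeks (68.6 to 78.8) and 45.1% at 6 weeks (35.2 to 55.3), against 1.71% and 0.476% of B cells at 9 and 6 weeks. These genes are close copies. Of the 50-base words in the last 500 bases of their annotated transcripts, 46.0% for Klra9, 31.5% for Klra3 and 13.1% for Klra8 also occur in another Klra gene, against none for Klra5 and Klra7. Levels of Klra9, Klra3 and Klra8 one by one are therefore uncertain.

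The lower receptor genes were Klrc1, Lag3, Cd200r1, Cd96 and Klri1, of which 3 had intervals apart. Klri1 rested on 7 UMIs at 9 weeks and 8 UMIs at 6 weeks. Klrc1, the inhibitory NKG2A chain for Qa-1, had 262 CPM at 9 weeks and 487 CPM at 6 weeks, and Lag3, a checkpoint receptor, had 10.1 CPM from 15 UMIs at 9 weeks and 35.6 CPM from 16 UMIs at 6 weeks. Pdcd1, Tigit and Havcr2, checkpoint receptors of chronically stimulated lymphocytes, held 17, 1 and 1 UMIs at 9 weeks and 3, 2 and 1 UMIs at 6 weeks. Among 14 activating receptor genes none was higher and 2 were lower, a share of 14.3% against 9.4% of all measured genes. These were Cd226, the DNAM-1 receptor for nectin-type ligands, at 118 CPM at 9 weeks and 271 CPM at 6 weeks, and Cd160, at 136 CPM at 9 weeks and 267 CPM at 6 weeks. The receptors read most often for NK activity differed little: Klrk1 had a log2 ratio of -0.24, and Ncr1, which is in the gate, 0.02. Of 19 signalling genes, Sh2d1a, the SAP adaptor, was higher and Ptpn6, the SHP-1 phosphatase that inhibitory receptors recruit, was lower, at 133 CPM at 9 weeks and 220.1 CPM at 6 weeks. The share each way, 5.26%, lay below that over all measured genes. Syk and Vav1, at log2 ratios of 0.67 and 0.88 without the mixed barcodes, then also passed 1.5-fold with overlapping intervals.

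Several secreted factors stood lower at 9 weeks. Of 14 measured, 7 were lower (50%, against 9.4% of all measured genes) and 1 higher (7.14%, against 14.2%), with a median log2 ratio of -0.59. Intervals stood apart for 5 of the lower genes and overlapped for the higher gene. Without the mixed barcodes Ccl4, a macrophage inflammatory chemokine, made 8 lower, at a log2 ratio of -0.66. Xcl1, the chemokine for XCR1-bearing dendritic cells, had 662 CPM at 9 weeks (621 to 705) and 2012 CPM at 6 weeks (1883 to 2148), a log2 ratio of -1.60. A single cell gave 9.39% of the 6-week Xcl1 UMIs, and the share of thinned cells with a UMI was 29.7% at 9 weeks and 60.8% at 6 weeks, with intervals apart. Ltb, a membrane cytokine of the lymphotoxin family, had 256 CPM at 9 weeks and 654 CPM at 6 weeks. Ifng had 54.0 CPM from 80 UMIs at 9 weeks and 153 CPM from 69 UMIs at 6 weeks. Its thinned shares were 8.91% at 9 weeks (5.95 to 12.7) and 12.7% at 6 weeks (6.96 to 20.8), whose intervals overlapped, and 58.0% of the 6-week Ifng UMIs lay in 5 cells. Ccl5, the most abundant factor, was close to equal at 10033 CPM at 9 weeks and 8777 CPM at 6 weeks. Fasl, the death ligand, stood at 152 CPM at 9 weeks and 151 CPM at 6 weeks.

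Cytokine receptors mostly stayed within 1.5-fold. Il2rb, the beta chain that binds IL-15 and IL-2, had 546 CPM at 9 weeks and 754 CPM at 6 weeks, a log2 ratio of -0.46, and Il18rap, an IL-18 receptor chain, 238 CPM at 9 weeks and 162 CPM at 6 weeks. Of 13 measured, Ifngr1 and Il12rb2 were higher and Il7r and Il2ra lower, with intervals apart for Ifngr1 and Il7r and overlapping for Il12rb2 and Il2ra. The share each way was 15.4%, against 14.2% higher and 9.4% lower over all measured genes. Ifngr1 stood at a log2 ratio of 0.57, short of 1.5-fold, once mixed barcodes were left out. Of 16 MHC class I and loading genes measured, 0 passed 1.5-fold in either direction, with a median log2 ratio of -0.01. Of 44 interferon response genes measured, 9 were higher and 4 lower, shares of 20.5% and 9.09% that lie near the background, and the median was 0.03. Without the mixed barcodes 8 of 43 were higher and 9 lower, shares of 18.6% and 20.9%, with a median of -0.12. Over all genes measured without them, 17.9% were higher and 8.62% lower, so the lower share then exceeded its background. Gbp2, a guanylate-binding protein, was higher, with 67.5 CPM at 9 weeks, 52.0% of it from 1 cell, and 17.8 CPM at 6 weeks. Isg15, a ubiquitin-like interferon target, was called lower, with 45.9 CPM at 9 weeks and 80.1 CPM at 6 weeks and overlapping intervals. Traffic receptors included Itga4, an integrin chain for VCAM-1, higher with 439 CPM at 9 weeks and 162 CPM at 6 weeks, Itga2, the NK marker CD49b, with 122 CPM at 9 weeks and 48.9 CPM at 6 weeks, and Cxcr3, lower with 42.5 CPM at 9 weeks and 95.6 CPM at 6 weeks.

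**Figure D4:**
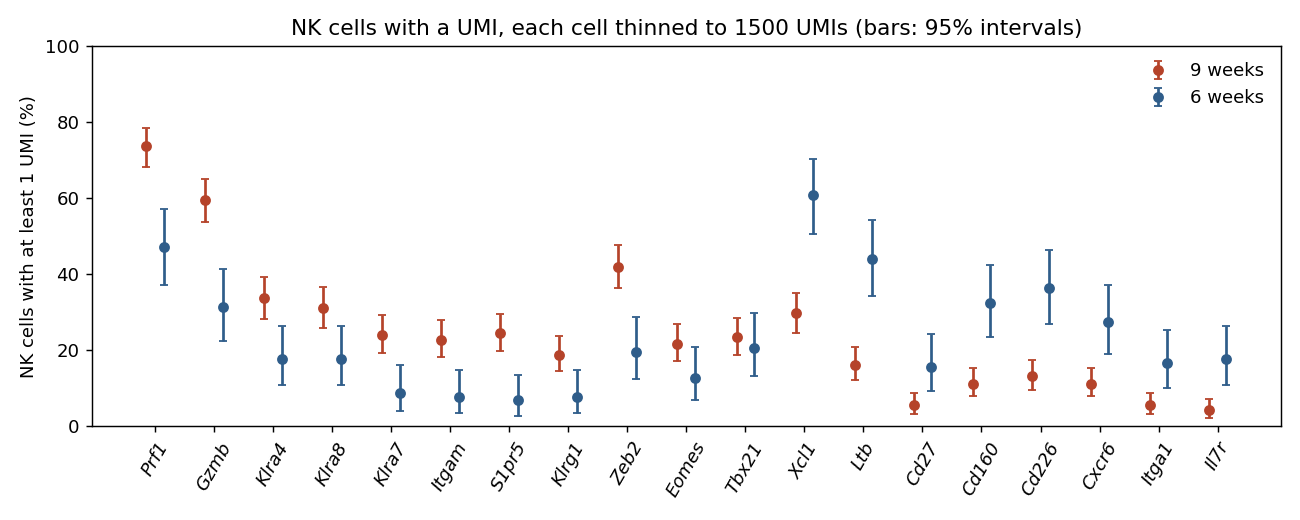
Percentage of NK cells with at least 1 UMI of each gene after thinning every cell to 1500 UMIs, at 9 weeks (red, 303 cells) and 6 weeks (blue, 102 cells), with exact binomial 95% intervals. Prf1, Gzmb, Klra4, Klra7, Itgam, S1pr5 and Zeb2 lie higher at 9 weeks with intervals apart, those of Tbx21 and Eomes overlap, and Xcl1, Ltb, Cd160, Cd226, Cxcr6 and Il7r lie lower at 9 weeks with intervals apart.

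Whether circulating and residency genes sat in the same cells was read from the thinned cells with a pair of gene sets, chosen after the list values were seen. The circulation set was Itgam, S1pr5, Cx3cr1 and Klrg1, and the residency set Itga1, Cxcr6, Cd200r1, Il7r and Tnfsf10. In the sums above, members of the circulation set were already higher at 9 weeks and those of the residency set lower. The difference in set shares between ages is therefore a description and adds no support to those sums. UMIs of the circulation set without the residency set were found in 46.9% of NK cells at 9 weeks (41.1 to 52.7) and 16.7% at 6 weeks (10.0 to 25.3). UMIs of the residency set without the circulation set were found in 17.2% at 9 weeks (13.1 to 21.9) and 41.2% at 6 weeks (31.5 to 51.4). Both sets together were seen in 1.98% of cells at 9 weeks and 3.92% at 6 weeks, and neither in 34.0% at 9 weeks and 38.2% at 6 weeks. A cell without UMIs of a set may still transcribe it, since 1500 UMIs miss many low transcripts. Unthinned, any circulation-set UMI was found in 69.7% of NK cells at 9 weeks and 32.7% at 6 weeks, and any residency-set UMI in 29.3% at 9 weeks and 56.1% at 6 weeks. Thinned B cells had circulation-set UMIs in 2.68% at 9 weeks and 1.90% at 6 weeks, and residency-set UMIs in 3.66% at 9 weeks and 4.29% at 6 weeks. Thinned CD8 T cells had circulation-set UMIs in 5.67% and 5.36% at 9 and 6 weeks, but residency-set UMIs in 69.6% and 53.6%. In thinned macrophages the circulation set was found in 68.1% and 67.9% at 9 and 6 weeks. Both sets are therefore carried by other cell classes too.

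Other genes, not used to form the sets, followed the split at both ages. Without mixed barcodes, Gzma stood at 23642 CPM in circulation-set cells and 3710 CPM in residency-set cells at 9 weeks, and at 21872 and 1426 CPM in these at 6 weeks. Klra4 stood at 953 and 89.6 CPM in circulation-set and residency-set cells at 9 weeks, and at 628 and 53.2 CPM at 6 weeks. Klf2 showed a like order, with 1550 and 102 CPM at 9 weeks and 1581 and 130.2 CPM at 6 weeks. Ltb went the opposite way, with 10.3 CPM in circulation-set cells and 1195 CPM in residency-set cells at 9 weeks, and no UMI in circulation-set cells and 1177 CPM in residency-set cells at 6 weeks. Gzmc lay mostly in residency-set cells, which gave 112 of its UMIs at 9 weeks and 115 at 6 weeks. Eomes, although part of the gate, had 218 CPM in circulation-set cells and 51.2 CPM in residency-set cells at 9 weeks, and 101 and 29.6 CPM at 6 weeks, where the intervals overlapped.

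Set beside each other within a class of cells, some genes still differed between ages and others hardly did. In residency-set cells Ltb and Cd7 had overlapping intervals, Cd7 at 1174 CPM at 9 weeks and 1331 CPM at 6 weeks. In circulation-set cells, 137 at 9 weeks and 17 at 6 weeks, Klf2 had overlapping intervals. Prf1 was higher at 9 weeks in circulation-set cells, at 2322 CPM (2189 to 2462) against 1419 CPM (1106 to 1793) at 6 weeks, and in residency-set cells, at 461 CPM against 195 CPM at 6 weeks. Xcl1 was lower at 9 weeks in circulation-set cells, at 298 CPM against 1439 CPM at 6 weeks. In residency-set cells it had 2139 CPM at 9 weeks and 2911 CPM at 6 weeks, which is within 1.5-fold although the intervals stood apart. In cells with neither set Xcl1 stood at 720.4 CPM at 9 weeks and 2392 CPM at 6 weeks. The 6-week circulation-set class held 17 cells, so its levels rest on few cells.

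**Figure D5:**
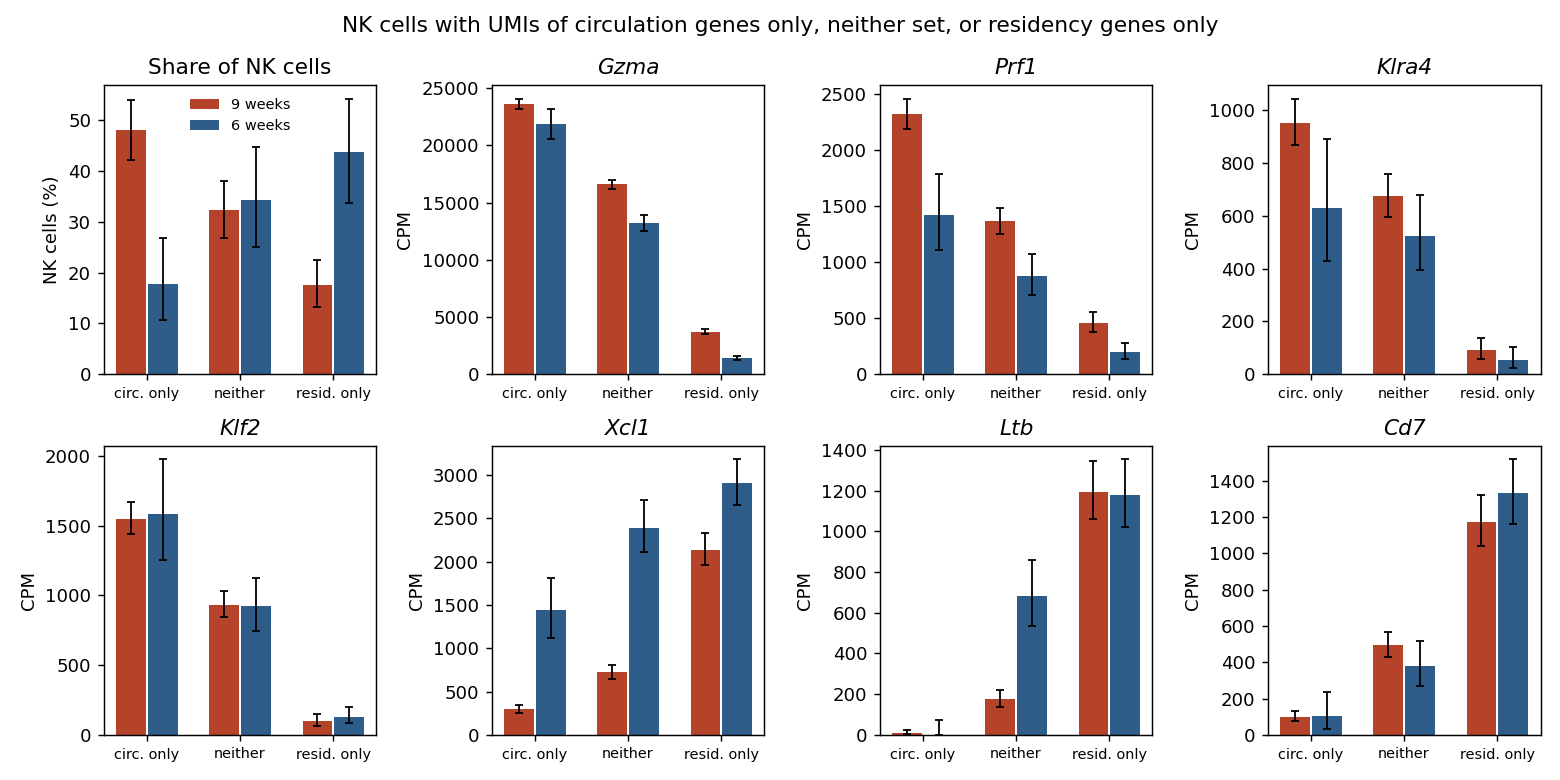
Share of NK cells (upper left, percent with exact binomial 95% intervals) and summed levels of 7 genes (CPM with exact Poisson 95% intervals) in cells with UMIs of circulation genes only, of neither set, or of residency genes only, at 9 weeks (red) and 6 weeks (blue), mixed barcodes left out. Gzma, Prf1, Klra4 and Klf2 are highest in circulation-set cells and Xcl1, Ltb and Cd7 in residency-set cells at both ages.

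Genes named by rule from the whole table (51 passed with higher and 33 with lower levels at 9 weeks) added some outside the lists above. Among the 12 largest each way, Taf7, Plcl2, Nab1 and Snx10 were higher. Nab1, a corepressor of EGR factors, had 149 CPM at 9 weeks and 33.4 CPM at 6 weeks, and Snx10, a sorting nexin of the endosome, had 78.3 CPM at 9 weeks and 20.01 CPM at 6 weeks. S100a4, a calcium-binding protein of motile cells, was lower with 194 CPM at 9 weeks and 632 CPM at 6 weeks, and Serpina3g, a serine protease inhibitor of activated lymphocytes, was lower with 136 CPM at 9 weeks and 371 CPM at 6 weeks. Another 3 genes named as lower, Gramd1b, Msmo1 and Hmgcs1, act in sterol transport or synthesis. Their log2 ratios of -1.64, -1.40 and -1.35 became -0.46, -0.74 and -0.04 without the mixed barcodes. Adrenocortical genes in NK barcodes summed to 3896 CPM at 9 weeks and 5808 CPM at 6 weeks, and to 192 and 403 CPM at 9 and 6 weeks without the mixed barcodes.

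S100a8 and S100a9, abundant neutrophil transcripts, had the largest ratios of the named genes. S100a8 had 2521 CPM at 9 weeks and 202 CPM at 6 weeks, and all 10 listed neutrophil genes were higher. Of NK UMIs of S100a8, S100a9, Ngp and Camp, neutrophil mixed barcodes held 96.9% at 9 weeks (7 barcodes) and 98.6% at 6 weeks (1 barcode). These barcodes were defined by the same genes, so such high shares follow in part from the definition. Without the mixed barcodes S100a8 stood at 121 CPM at 9 weeks and 2.92 CPM at 6 weeks. Its log2 ratio was then 3.99, against 3.61 over all gated barcodes. The neutrophil list also differed in cells that are not NK cells, summing to 726 CPM in endothelial cells at 9 weeks and 20.4 CPM at 6 weeks, and neutrophils were 7.05% of all cells at 9 weeks and 1.85% at 6 weeks by a gate added after the data were seen. Macrophage markers summed to 1104 CPM in NK barcodes at 9 weeks and 196 CPM at 6 weeks, and without the mixed barcodes to 518 CPM at 9 weeks and 216 CPM at 6 weeks. Endothelial markers summed to 341 CPM at 9 weeks and 216 CPM at 6 weeks. Apart from a subtraction of free RNA scaled on cortical UMIs, given below, the part of RNA from other cells in the NK results was not tested.

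Cycle genes were also higher in the sums. Of 38 replication and mitosis genes measured, 21 were higher (55.3%, against 14.2% of all measured genes) and none lower, and 10 had intervals apart. Stmn1, a microtubule regulator of dividing cells, had 199.7 CPM at 9 weeks and 26.7 CPM at 6 weeks. Mki67 had 63 UMIs from 13 cells at 9 weeks, of which 85.7% lay in 5 cells, and 2 UMIs at 6 weeks. With each cell thinned to 2000 UMIs, at least 2 UMIs over 11 mitotic genes were found in 8 of 287 cells at 9 weeks (2.79%, 1.21 to 5.42) and 1 of 91 at 6 weeks (1.10%, 0.0278 to 5.97). A difference in the share of cycling NK cells was not detectable at this depth. CD8 T cells had 7.33% at 9 weeks and 8% at 6 weeks by the same count.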

How the data were processed

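Adrenal cells of 1 library per age were measured by 10x Genomics droplet RNA sequencing. The deposited values are whole-number UMI counts per gene and barcode, which the authors made with Cell Ranger 6.0.1 on mm10, per the submitters' processing notes; these also name Seurat, without a version. No values were normalised before deposit as far as the files show. The libraries held 99728879 UMIs in 10812 barcodes at 9 weeks and 97001752 UMIs in 8880 barcodes at 6 weeks.

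Barcodes passed at 500 genes and at most 25% mitochondrial UMIs, and NK cells were gated as given in the report. Counts were summed over NK cells and scaled to CPM, and log2 ratios used a pseudocount of 5 CPM. Exact Poisson intervals (CPM) and Clopper-Pearson intervals (shares), at 95%, cover counting error only. Shares per gene used cells thinned to 1500 UMIs, and cycling calls cells thinned to 2000 UMIs. Doublets were called with Scrublet in scanpy 1.11.5 and kept in the main values; it called 586 cells at 9 weeks and 475 at 6 weeks. The genes named from the whole table reached 50 CPM, 30 UMIs and UMIs in 10% of NK cells at the age with the higher level. They also had intervals apart, an absolute log2 ratio of 1 or more, and stood at 20% or more of the level in CD8 T, Il7r-positive innate-type, B, macrophage, adrenocortical and endothelial cells. The neutrophil gate was added later and is not part of this rule. The 12 largest ratios each way were taken, without mitochondrial, ribosomal, haemoglobin, immunoglobulin, T cell receptor segment and clone-named genes. Other genes come from the 29 gene lists. The values of 1 listed gene are not reported here. The members and lists were chosen with earlier results of these data known. The removal of mixed barcodes was an alternative added after the data were seen. Other alternatives changed the doublets, gate, cell filters, pseudocount, scaling (TMM in edgeR 4.0.16), cell weighting, cycling cells, free RNA and the filter on low counts. Promoter sequences and names came from RefSeq on GRCm38.p6. Computations used R 4.3.3, pandas 2.3.3, scipy 1.17.1, numpy 2.4.6 and Python 3.11.15, and were tested on simulated data.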

Additional observations from a re-analysis of the deposited data

How the results depend on the processing

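No paired analysis was possible because each age had 1 library. For the same reason leaving out a library could not be tried. The ratios of NK shares and of cycling shares stayed within their main bounds in every alternative tried. For the cycling ratio this says little, since its main value rests on 1 cycling cell at 6 weeks and its bounds are very wide. The count of genes higher at 9 weeks, 1254, became 510 with a pseudocount of 20 CPM, 2000 with no filter on low counts and 374 with a filter of 50 CPM and 30 UMIs. The count of genes lower at 9 weeks, 829, became 302 with a pseudocount of 20 CPM, 1557 with free RNA subtracted and 207 with the filter of 50 CPM and 30 UMIs. Fewer genes were tested under the stricter filter and more with no filter, and a larger pseudocount shrinks ratios, most for low genes. For the subtraction of free RNA the cause was not tested. Of 429 pairs of a named gene and a setting, 3 lay on the other side of 0. The log2 ratio of Hmgcs1, -1.35, became 0.23 without Scrublet doublets and 0.11 without mixed barcodes and with free RNA subtracted. The log2 ratio of S100a8, 3.61, became -5.38 with free RNA subtracted. That subtraction removed 44.7% of NK UMIs at 9 weeks and 24.4% at 6 weeks, since it was scaled on cortical UMIs that lie in mixed barcodes, and removed 1.44% and 1.48% at 9 and 6 weeks without them. TMM scaling shifted all log2 ratios by -0.01. Depth limits what can be said of genes with few UMIs in the 107 NK cells at 6 weeks.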

Other observations

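Glycolysis genes were higher in 3 of 14 measured (21.4%, against 14.2% of all measured genes) and lower in none, and 2 of the 3 had intervals apart. Pfkp, a phosphofructokinase, had 135 CPM at 9 weeks and 64.5 CPM at 6 weeks, and Pkm, a pyruvate kinase, had 237 CPM at 9 weeks and 151 CPM at 6 weeks. Without the mixed barcodes Pkm no longer passed 1.5-fold, at a log2 ratio of 0.52, while Eno1 and Tpi1 did. Of 24 cytoskeleton and motility genes, Vim, Lgals1 and Ahnak were higher and S100a4 was lower, shares of 12.5% and 4.17% that lie below those over all genes. Vim, an intermediate filament, had 731 CPM at 9 weeks and 407 CPM at 6 weeks. Siglech, a marker of plasmacytoid dendritic cells, had no UMI at 9 weeks and 25 UMIs at 6 weeks, all in 1 barcode.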
